A study of Mus musculus with 16 samples.

Results

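The genes of antigen presentation by the major histocompatibility complex (MHC, named H2 in the mouse) were followed in mouse liver. They were chosen by name, as every symbol of the array annotation that starts with H2- and is not marked as a pseudogene (-ps), with B2m, Tap1, Tap2, Tapbp, Nlrc5, Cd74, Ciita, Ctss, Cd80 and Cd86 added. This gave 39 of the 19935 genes tested. There were 20 class I molecules, 5 genes of class I assembly (B2m, Tap1, Tap2, Tapbp and Nlrc5), 8 class II molecules, 3 genes of the class II pathway (Cd74, Ciita and Ctss) and 2 costimulatory ligands (Cd80 and Cd86). The remaining gene, H2-Ke6, lies in the complex but encodes a steroid dehydrogenase and no MHC molecule. RefSeq classes 5 of the 39 as transcribed pseudogenes (H2-Q5, H2-K2, H2-Bl, H2-T10 and H2-Ea). Of 41 H2- symbols in the annotation, 29 had a probe set with no second symbol. The other 12, among them the classical class I genes H2-K1 and H2-D1, had only probe sets that carry several symbols and were given no value.

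Liver RNA was hybridised to Affymetrix whole-transcript arrays, 1 per mouse, to ask what the loss of the nuclear receptor PPARβ/δ (gene Ppard) and fasting do to liver transcripts. All mice were males of a mixed Sv129/C57Bl/6 background. The wild-type mice comprised 4 fed animals and 5 fasted for 24 h, and the knockout mice 4 fed animals and 3 fasted for 24 h. The series text gives 4 to 5 mice a group, so the knockout fasted group is 1 short of it. Neither the age of the mice, nor the cells in which Ppard was deleted, nor the strain of origin of each mouse's H2 genes is given in the sources used here. The values are normalized intensities, shown as log2. A difference of 1 is a doubling, and errors on differences are standard errors of the limma fit to all arrays. That fit pools the spread within all groups, so an error or interval also rests on mice outside the groups compared.

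The arrays carried the signal of liver, since all 10 hepatocyte markers had means of log2 9.31 or more. Ppard itself read 4.78, 5.50, 5.31 and 4.83 in the wild-type fed group, against 5.00, 4.50, 4.45 and 4.89 in its knockout counterpart. These groups overlapped, with a difference of -0.39 ± 0.15 (SE, adjusted p = 0.266). In fasted mice the difference was -0.08 ± 0.16 (SE, adjusted p = 0.908). Whether its probe set lies in the deleted part is not known here, so the genotypes rest on the labels. Knockout fed mice 1 and 4 stood apart in a list of 11 measured genes of interferon gamma signalling, with list means of 6.37 and 6.07 where mice 2 and 3 of that group had 5.67 and 5.76. In mouse 1 this rested largely on Socs3 and Irf1, which read 7.85 and 7.71 there and 5.91 and 6.00 in mouse 4. They read 4.73 and 5.41 in mouse 2 and 4.74 and 5.74 in mouse 3. Those list means stood out from the rest of the series. The list means of the other 3 groups lay between 5.44 and 5.70. The calls on members and the counts of the gene lists below are therefore also given without knockout fed mice 1 and 4.

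MHC class I molecules sit on most nucleated cells and show CD8 T cells short peptides from proteins made inside the cell. The proteasome cuts the peptides, TAP1 and TAP2 carry them into the endoplasmic reticulum, and tapasin (Tapbp), calreticulin and ERp57 help load them on a heavy chain paired with beta-2-microglobulin (B2m). Class II molecules are made chiefly by dendritic cells, B cells and macrophages and show CD4 T cells peptides from material taken up, with the invariant chain (Cd74) as a placeholder that cathepsin S (Ctss) cuts away. NLRC5 is the coactivator of class I genes and CIITA that of class II genes, and both act through a shared promoter module that includes an inverted CCAAT box, the Y box. In the liver, hepatocytes carry class I, while class II is found mainly on Kupffer cells and other antigen-presenting cells.

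The Y box core is the piece of that module searched for here. The 150 bases before the transcription start are shown for B2m, for the liver class I gene H2-Q10, for H2-Q4 and H2-Q2, which differed between genotypes, and for the class II pair H2-Eb1 and H2-Aa. They come from the RefSeq promoter table of build GRCm38.p6, each 5′ to 3′ on the strand of its gene. The stretches are chr2:122147537-122147686 (plus strand) for B2m, chr17:35469939-35470088 (plus) for H2-Q10, chr17:35379467-35379616 (plus) for H2-Q4, chr17:35342157-35342306 (plus) for H2-Q2, chr17:34305717-34305866 (plus) for H2-Eb1 and chr17:34287824-34287973 (minus) for H2-Aa. Capitals mark the Y box core GATTGG, or its reverse complement CCAATC where the core is on the other strand.
B2m: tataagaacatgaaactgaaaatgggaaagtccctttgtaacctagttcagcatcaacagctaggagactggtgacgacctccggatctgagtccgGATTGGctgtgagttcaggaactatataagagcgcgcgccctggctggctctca
H2-Q10: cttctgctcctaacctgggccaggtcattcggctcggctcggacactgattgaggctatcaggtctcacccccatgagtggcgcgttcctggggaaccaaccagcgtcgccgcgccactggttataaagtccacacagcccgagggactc
H2-Q4: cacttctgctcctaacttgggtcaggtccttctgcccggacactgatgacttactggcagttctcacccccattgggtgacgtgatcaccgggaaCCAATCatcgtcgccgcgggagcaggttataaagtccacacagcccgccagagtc
H2-Q2: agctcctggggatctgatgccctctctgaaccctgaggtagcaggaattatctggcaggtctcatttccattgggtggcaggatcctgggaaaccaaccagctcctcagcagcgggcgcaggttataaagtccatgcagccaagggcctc
H2-Eb1: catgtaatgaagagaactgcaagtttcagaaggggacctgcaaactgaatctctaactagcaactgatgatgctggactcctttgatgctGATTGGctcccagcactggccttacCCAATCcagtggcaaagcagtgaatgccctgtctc
H2-Aa: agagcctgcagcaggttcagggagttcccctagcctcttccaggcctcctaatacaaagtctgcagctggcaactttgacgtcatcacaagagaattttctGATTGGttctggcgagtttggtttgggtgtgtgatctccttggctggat

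The core was searched on both strands over the 250 bases before each start, in the 27 of 39 genes that the promoter table holds. All 6 class II molecules with a promoter had GATTGG on the strand of the gene. Counted back from the start, it began at position -60 in H2-Eb1, -49 in H2-Aa, -58 in H2-Ob, -44 in H2-Oa and -101 in H2-Eb2, and at -199 from the second start of H2-DMa. None of the 15 class I molecules with a promoter had it on that strand, but 10 had it on the opposite strand, at -55 in H2-Q4 and between -57 and -82 in the others. H2-Q10 and H2-Q2 had neither, and B2m had the core at -54 in the class II orientation. Of all 32851 promoters in the table, 7.73% held the core on the strand of the gene and 7.69% on the opposite strand. An interferon response core (AAANNGAAA, either strand) lay in 4 of the 27 genes (B2m, Ctss, H2-M11 and H2-DMa) against 9.37% of all promoters. A gamma-activated site (TTCNNNGAA, the same on both strands) lay in 2 (H2-M3 and H2-M11) against 7.02%. These matches describe letters in the window and were not tested as binding sites.

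Levels differed widely among the 39 genes, although intensities of different probe sets cannot be set against each other as amounts of RNA. Means over all 16 mice were at or above log2 2.79, the 40th percentile of all genes tested and here the limit for a dim gene, in 22 members. The 17 dim members were 10 class I molecules of the H2-M group, the class II molecules H2-Ob, H2-DMa, H2-Oa, H2-Eb2 and H2-Ea, and Ciita and Cd80. Their means ran from 1.81 to 2.76, and 0 of the 17 passed the test in any of the 6 contrasts (limma, Benjamini-Hochberg over all genes). Between genotypes in fed mice, 3 of the 17 had an unadjusted p under 0.05, as did 13.2% of all genes tested. The bright members were B2m, at a mean of 11.22, H2-Q10 at 8.84, Tapbp at 7.43, Nlrc5 at 7.17 and Ctss, Cd74 and H2-Ab1 at 6.73, 6.58 and 6.56.

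In fed mice, 5 members were higher in the knockout, and no class II molecule was among them. H2-Q4, H2-T24 and H2-Q2 among the class I molecules, the cathepsin Ctss and the costimulatory ligand Cd86 rose in the knockout, by factors of 1.39 to 2.06. These are 5 of 39 members (12.8%), all higher, where 0.677% of all genes tested passed, 0.451% as higher and 0.226% as lower. The median difference over the 39 members was 0.16, against 0.01 over all genes tested. It was 0.18 over the 20 class I molecules, of which 17 had a positive difference, and -0.02 over the 8 class II molecules, where quantile normalization gave 0.01.

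**Figure D1:**
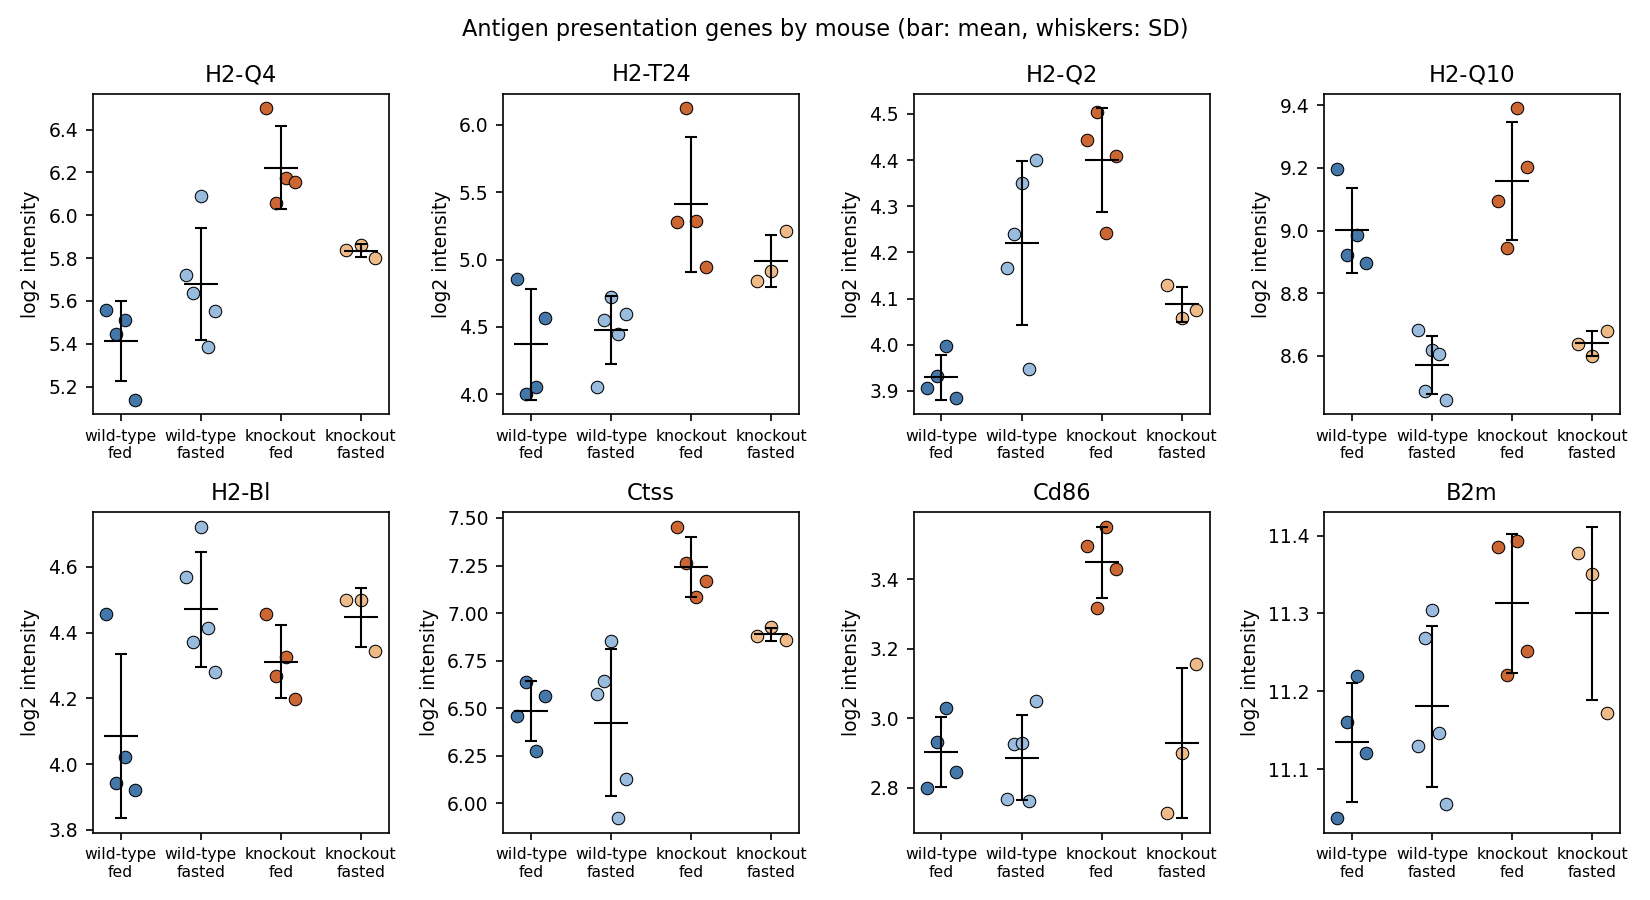
Log2 intensity (vertical axis, a separate scale in each panel) of 8 antigen presentation genes in each of the 16 mice, by group (horizontal axis), where each point is 1 mouse, the bar is the group mean and the whiskers are 1 SD. The knockout fed mice lie above all wild-type fed mice for H2-Q4, H2-T24, H2-Q2, Ctss and Cd86, fasted mice of both genotypes lie below all fed mice of the same genotype for H2-Q10, and B2m stays between 11.04 and 11.39 in all mice.

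H2-Q4 encodes a nonclassical class I molecule of the Q group. It read 5.56, 5.44, 5.51 and 5.14 in the wild-type fed group, against 6.50, 6.06, 6.17 and 6.16 in the knockout fed group. All knockout values lay above all wild-type values, and the difference was 0.81 ± 0.13 (SE, adjusted p = 0.00734). In fasted mice the groups overlapped, at 5.72, 5.64, 6.09, 5.39 and 5.55 in wild-type and 5.84, 5.86 and 5.80 in knockout mice, a difference of 0.16 ± 0.14 (SE, adjusted p = 0.755). H2-T24, of the T group, read 4.85, 4.00, 4.05 and 4.57 in wild-type fed and 5.28, 6.13, 5.29 and 4.94 in knockout fed mice. These groups did not overlap either, with knockout fed mouse 2 the highest, and the difference was 1.04 ± 0.23 (SE, adjusted p = 0.0449). The fasted mice also lay apart by genotype, at 4.05, 4.55, 4.72, 4.45 and 4.60 against 4.84, 4.91 and 5.21, but the difference of 0.51 ± 0.23 (SE, adjusted p = 0.461) did not pass. H2-Q2, another Q group gene, was dimmer, at 3.91, 3.93, 4.00 and 3.88 in wild-type fed and 4.44, 4.50, 4.24 and 4.41 in knockout fed mice. It differed by 0.47 ± 0.09 (SE, adjusted p = 0.0196), with no overlap. In fasted mice the 3 knockout values of 4.13, 4.06 and 4.07 fell inside the wild-type range of 3.95 to 4.40.

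The other bright class I molecules did not pass in fed mice. H2-Q5, a Q group pseudogene, read 5.67, 5.56, 5.71 and 5.65 in wild-type fed and 6.76, 6.11, 6.18 and 6.16 in knockout fed mice, without overlap, a difference of 0.65 ± 0.17 (SE, adjusted p = 0.0849). H2-K2, a pseudogene of the K region, read 3.89, 3.54, 4.25 and 3.45 in wild-type fed and 6.02, 3.89, 4.20 and 4.22 in knockout fed mice, and knockout fed mouse 1 stood far above the rest, with a difference of 0.80 ± 0.34 (SE, adjusted p = 0.316). H2-T10 differed by 0.62 ± 0.22 (SE, adjusted p = 0.21). H2-Q10, a secreted class I molecule made by hepatocytes, differed by 0.16 ± 0.09, H2-Bl by 0.23 ± 0.12, H2-M3, which presents formylated peptides, by 0.07 ± 0.11 and H2-M10.2 by -0.16 ± 0.11, with adjusted p between 0.43 and 0.814. Genes of the Q and T groups are near copies of each other, so the signal of a probe set may include a neighbour's transcripts, and which gene of a group differed is uncertain.

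The genes of class I assembly had positive differences in fed mice, 5 of 5, and none passed the test by its brightest probe set. B2m read 11.04, 11.16, 11.22 and 11.12 in wild-type fed and 11.39, 11.22, 11.39 and 11.25 in knockout fed mice, with a difference of 0.18 ± 0.08 (SE, adjusted p = 0.328) and a 95% interval of 0.01 to 0.34. Tapbp, the tapasin gene, read 7.07, 7.32, 7.47 and 7.26 against 7.75, 7.45, 7.76 and 7.95. Its groups overlapped only in wild-type fed mouse 3 and knockout fed mouse 2, and its difference was 0.45 ± 0.11 (SE, adjusted p = 0.0834). The peptide transporter genes Tap1 and Tap2 differed by 0.42 ± 0.18 (SE, adjusted p = 0.323) and 0.23 ± 0.11 (SE, adjusted p = 0.405), with overlapping groups. The median over the 5 genes was 0.23.

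Nlrc5, the class I coactivator, had 19 probe sets. The one that stands for the gene by its brightness had the smallest difference of them in the fed knockout. That probe set read 7.16, 7.03, 6.82 and 6.92 in wild-type fed and 7.39, 7.46, 7.05 and 6.79 in knockout fed mice, which overlapped, and differed by 0.19 ± 0.13 (SE, adjusted p = 0.547). The median over the 19 probe sets read 3.87, 4.00, 4.05 and 4.21 in wild-type fed mice, 4.72, 4.77, 5.25, 4.69 and 4.41 in wild-type fasted mice, 4.68, 4.80, 5.17 and 5.04 in knockout fed mice and 4.71, 4.79 and 4.72 in knockout fasted mice. The wild-type fed mice lay below all other mice. All 19 probe sets were higher in the knockout fed group, by 0.19 to 1.38 with a median of 0.82, and 9 passed as higher, where 0.473% of the 21780 probe sets with 1 symbol passed as higher. All 19 were also higher in fasted than in fed wild-type mice, with a median of 0.65, and 15 passed, against 3.19% of probe sets. Both contrasts use the same 4 wild-type fed mice. For the mean knockout effect over fed and fasted mice 7 passed as higher, against 0.95%, and in fasted mice by genotype, in knockout mice by feeding and in the difference of the fasting responses 0 passed. When knockout fed mice 1 and 4 were left out, 3 probe sets passed in the fed knockout, with all 19 still positive and a median of 0.80, 16 for fasting in wild-type mice and 2 for the mean knockout effect. Probe sets of 1 gene share their mice and are no replicates. With the median of the probe sets standing for the gene, the difference in fed mice was 0.89 (adjusted p = 0.00629), that of fasting in wild-type mice 0.73 (adjusted p = 0.00217) and the mean knockout effect 0.43 (adjusted p = 0.0435), where the brightest probe set gave -0.01 (adjusted p = 0.988). With those mice left out that median gave 0.95 in fed mice (adjusted p = 0.0351), 0.73 for fasting in wild-type mice (adjusted p = 0.00261) and 0.46 for the mean effect (adjusted p = 0.0804).

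**Figure D2:**
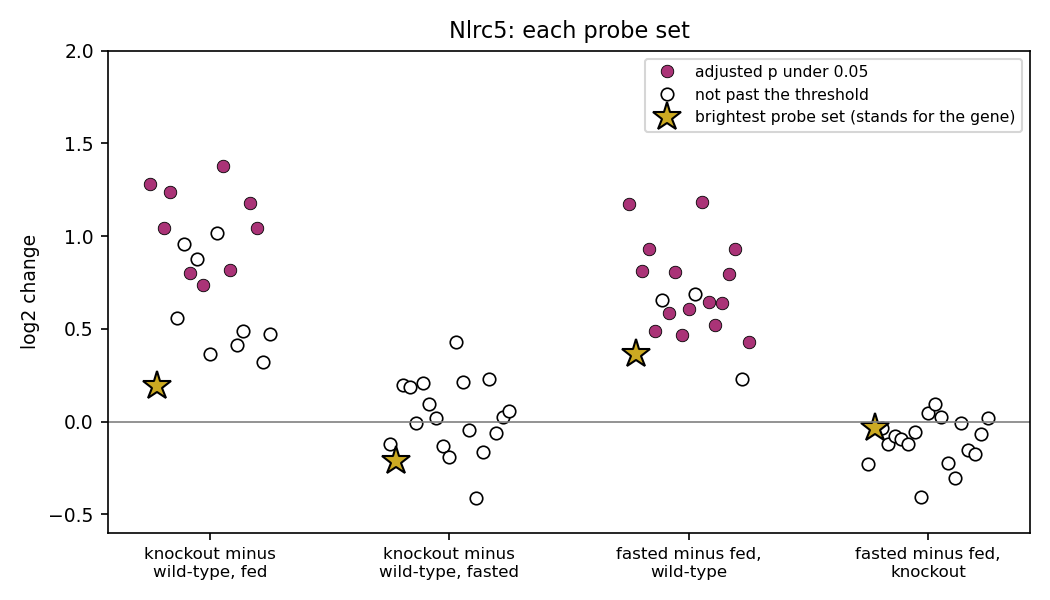
Log2 change of each of the 19 Nlrc5 probe sets (vertical axis) in 4 contrasts (horizontal axis, points spread sideways for legibility), with filled points for adjusted p under 0.05 and a star for the brightest probe set, which passed in none of them. In the fed knockout and in fasted wild-type mice all 19 points lie above 0, while in fasted mice by genotype and in knockout mice by feeding they lie on both sides of 0 and none is filled.

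Ctss and Cd86 rose in the fed knockout outside the class I genes. Ctss, the protease that trims the invariant chain, read 6.46, 6.64, 6.28 and 6.56 in wild-type fed and 7.45, 7.27, 7.08 and 7.17 in knockout fed mice. The groups did not overlap, and the difference was 0.76 ± 0.16 (SE, adjusted p = 0.0374). Fasted mice read 6.57, 6.65, 6.85, 5.92 and 6.13 in wild-type and 6.88, 6.93 and 6.86 in knockout animals, where the difference of 0.46 ± 0.16 (SE, adjusted p = 0.306) did not pass. Cd86, which gives T cells their second signal through CD28, read 2.80, 2.93, 3.03 and 2.85 in wild-type fed and 3.49, 3.32, 3.55 and 3.43 in knockout fed mice, close to the limit for dim genes. All knockout fed values lay above the wild-type ones, and the difference was 0.55 ± 0.10 (SE, adjusted p = 0.0119). Its partner Cd80 was dim, at a mean of 2.33, and did not pass. H2-Ke6, the gene of the complex with no role in presentation, differed by -0.18 ± 0.10 (SE, adjusted p = 0.47).

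The class II molecules showed no called difference in any contrast. H2-Ab1, the beta chain of the A molecule, read 6.33, 6.76, 6.75 and 6.63 in wild-type fed and 7.20, 6.41, 6.43 and 6.36 in knockout fed mice. These overlapped, with a difference of -0.02 ± 0.39 (SE, adjusted p = 0.991) and a wide 95% interval of -0.84 to 0.81. H2-Aa, its alpha chain, and H2-Eb1, the beta chain of the E molecule, differed by -0.07 ± 0.33 and -0.01 ± 0.28 (SE), with intervals of -0.76 to 0.62 and -0.59 to 0.58. Cd74, the invariant chain, differed by 0.15 ± 0.30 with an interval of -0.48 to 0.78. Intervals this wide leave room for changes of the size called among class I genes. Their width draws on the spread within all groups, fasted mice included. For H2-Ab1 the range was 0.44 in wild-type fed and 0.83 in knockout fed mice. It was 2.57 in wild-type fasted and 0.80 in knockout fasted mice. Ciita, the class II coactivator, was dim at a mean of 2.53 and did not pass.

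**Figure D3:**
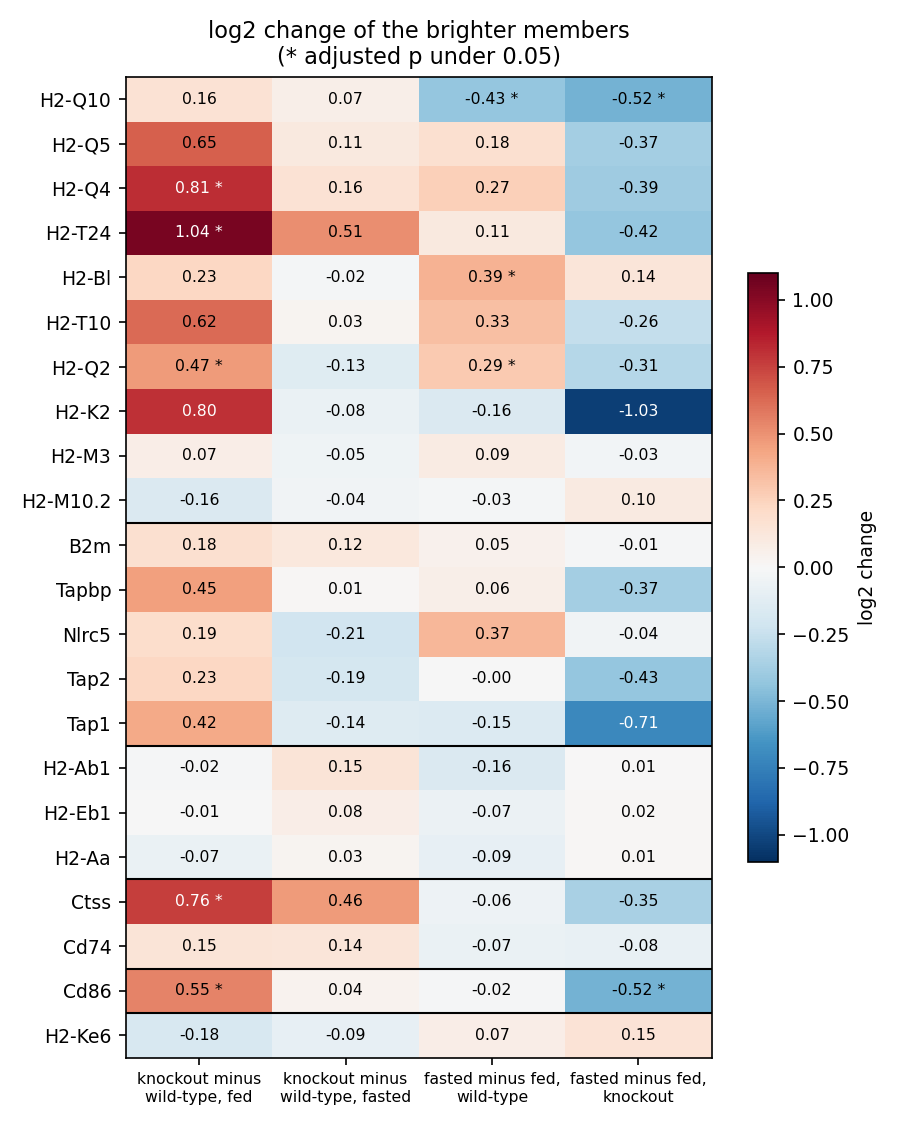
Log2 change of the 22 members at or above the limit for dim genes (rows, by class and then by mean level) in 4 contrasts (columns), coloured from blue (lower) to red (higher), with an asterisk at an adjusted p under 0.05. The asterisks in the fed knockout column stand at H2-Q4, H2-T24, H2-Q2, Ctss and Cd86, the fasted knockout column has none, and the class II rows stay within 0.16 of 0.

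Without knockout fed mice 1 and 4, 1 of the 39 members passed in fed mice, H2-T24, at 1.34 (adjusted p = 0.0431). The sizes of the others stayed near the values above, at 0.70 for H2-Q4, 0.44 for H2-Q2, 0.69 for Ctss and 0.53 for Cd86, with adjusted p of 0.104, 0.196, 0.26 and 0.127 over the remaining 2 knockout fed mice. H2-Q4 and Cd86 passed whichever single mouse of the 16 was left out. H2-Q2 was lost without wild-type fed mouse 1, 2 or 4 or knockout fed mouse 1 or 4, at 0.46 to 0.47. Ctss passed in 6 of the 16 fits that leave out a mouse and was lost without any of the 4 wild-type fed mice, knockout fed mouse 1, 2 or 4, or any knockout fasted mouse, at 0.69 to 0.81. H2-T24 passed in 5 of 16 and was lost without wild-type fed mouse 2, 3 or 4, wild-type fasted mouse 2, 4 or 5, knockout fed mouse 1 or 2, or any knockout fasted mouse, at 0.80 to 1.11. With arrays centred on a common median H2-T24 (adjusted p = 0.0535) and Ctss (adjusted p = 0.0598) did not pass. H2-T24 also did not pass with only the fed groups in the fit (adjusted p = 0.174) or with the replicate number as a block (adjusted p = 0.0808).

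In fasted mice, 0 of the 39 members passed between genotypes by limma, where 0.537% of all genes passed, 0.351% as higher and 0.186% as lower. An unadjusted p under 0.05 was found for 3 of the 39 and for 10.4% of all genes. The median over members was -0.01, and that over the 20 class I molecules turned from -0.01 to 0.03 under quantile normalization. Averaged over fed and fasted mice, 4 of 39 members (10.3%) were higher in the knockout and 0 lower, where 1.55% of all genes passed, 0.963% as higher and 0.587% as lower. They were H2-T24 at 0.78 ± 0.16 (SE, adjusted p = 0.0212), Ctss at 0.61 ± 0.11 (SE, adjusted p = 0.0102), H2-Q4 at 0.48 ± 0.10 (SE, adjusted p = 0.0144) and Cd86 at 0.29 ± 0.07 (SE, adjusted p = 0.041). With the replicate block H2-T24 was lost (adjusted p = 0.0644). Ctss and H2-Q4 passed whichever single mouse was left out, and H2-T24 was lost without knockout fasted mouse 2 or 3, at 0.80 and 0.72. Cd86 passed in 4 of the 16 such fits, those without wild-type fed mouse 3, wild-type fasted mouse 5, knockout fed mouse 2 or knockout fasted mouse 1, and without any other mouse it was lost, at 0.24 to 0.30, as it was with centred arrays (adjusted p = 0.0538). Without knockout fed mice 1 and 4 together H2-T24 passed at 0.92 (adjusted p = 0.0144), while Ctss at 0.58, H2-Q4 at 0.43 and Cd86 at 0.29 did not (adjusted p = 0.054, 0.07 and 0.15).

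H2-Q10, the class I gene made by hepatocytes, fell with fasting in both genotypes. It read 9.20, 8.92, 8.99 and 8.90 in fed and 8.68, 8.49, 8.62, 8.61 and 8.46 in fasted wild-type mice. The groups lay apart, and the change was -0.43 ± 0.09 (SE, adjusted p = 0.00496). In knockout mice it read 9.10, 8.94, 9.39 and 9.20 when fed and 8.64, 8.60 and 8.68 when fasted. Here too all fasted values lay below all fed values, a change of -0.52 ± 0.10 (SE, adjusted p = 0.00799). The fall in knockout mice did not differ beyond error from that in wild-type mice (difference -0.09 ± 0.13, adjusted p = 0.805, 95% interval -0.37 to 0.20). Without knockout fed mice 1 and 4 the change was -0.43 in wild-type mice (adjusted p = 0.00802) and -0.53 in knockout mice (adjusted p = 0.0641). With only the knockout groups in the fit, the fall in knockout mice stood just outside the threshold (adjusted p = 0.0507).

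In wild-type mice 3 of 39 members passed (7.69%), 2 higher and 1 lower, near the background of 9.22% of all genes, 3.3% higher and 5.92% lower. Beside the fall of H2-Q10, the pseudogene H2-Bl rose by 0.39 ± 0.11 (SE, adjusted p = 0.0369) and H2-Q2 by 0.29 ± 0.08 (SE, adjusted p = 0.0392). H2-Bl read 4.46, 3.94, 4.02 and 3.92 in fed and 4.57, 4.37, 4.72, 4.42 and 4.28 in fasted mice. The fed mouse 1 lay among the fasted ones. A second probe set, which H2-Bl shares with H2-Q1, changed by 0.09 ± 0.11 (SE, adjusted p = 0.726 over all probe sets) and did not pass. H2-Bl was lost without wild-type fed mouse 2, 3 or 4 or wild-type fasted mouse 1, 3 or 4, at 0.32 to 0.40, and H2-Q2, whose groups overlapped in 1 mouse of each, was lost in 10 of the 16 fits that leave out a mouse. Among these fits, H2-Q2 kept its call only without wild-type fasted mouse 4, any 1 knockout fed mouse or knockout fasted mouse 1. Without knockout fed mice 1 and 4 together, which changes the variance estimate and not the mice compared, H2-Bl passed (adjusted p = 0.0434) and H2-Q2 did not (adjusted p = 0.0537). Both were lost with centred arrays, at 0.35 and 0.26, and with only the wild-type groups in the fit (adjusted p = 0.0795 and 0.0734). H2-Q2 was also lost with an intensity trend and robust variance (adjusted p = 0.0759) and with the replicate block (adjusted p = 0.107).

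In knockout mice 2 of 39 members fell with fasting and 0 rose, where 3.67% of all genes passed, 1.87% as higher and 1.8% as lower. The members were H2-Q10 and Cd86, which read 3.49, 3.32, 3.55 and 3.43 in fed and 2.73, 2.90 and 3.16 in fasted knockout mice. Its groups did not overlap, with a change of -0.52 ± 0.10 (SE, adjusted p = 0.00915), but it was lost without knockout fasted mouse 1, at -0.42 (adjusted p = 0.057), without knockout fed mice 1 and 4, at -0.51 (adjusted p = 0.0821), and with only the knockout groups in the fit (adjusted p = 0.0568). Tap1 read 5.57, 5.47, 4.86 and 5.06 in fed and 4.71, 4.30 and 4.58 in fasted knockout mice, also apart, and its change of -0.71 ± 0.19 (SE, adjusted p = 0.053) stood just outside the threshold. Tap2, Tapbp and H2-K2 had changes of -0.43 ± 0.12, -0.37 ± 0.12 and -1.03 ± 0.37 that did not pass. The median over the 5 genes of class I assembly was -0.37, over the 20 class I molecules -0.13 and over the 8 class II molecules 0.01 (-0.01 under quantile normalization), against -0.02 over all genes tested.

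The fasting response of the members was not shown to depend on genotype. For the difference of the fasting responses 0 of 39 members passed by limma, and 0.01% of all genes did. An unadjusted p under 0.05 was found for 10 of the 39, a larger share than the 12.2% of all genes. The median over members was -0.15, against -0.03 over all genes tested. Among members 31 of the 39 differences were negative, and among all genes 11046 of 19935. The lowest adjusted p among the members belonged to H2-Q2, at -0.60 ± 0.13 (SE, adjusted p = 0.15). It was followed by Cd86 at -0.51 ± 0.14 (SE, adjusted p = 0.208) and H2-Q4 at -0.65 ± 0.19 (SE, adjusted p = 0.238).

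Some other genes of the class I route fell with fasting. Of 16 measured partners (immunoproteasome, chaperones, trimming peptidases and factors of the class I promoter), 4 fell in fasted wild-type mice and 0 rose, where 5.92% of all genes fell and 3.3% rose. These were calreticulin (Calr, -0.65 ± 0.10 (SE, adjusted p = 0.00046)), calnexin (Canx, -0.39 ± 0.07 (SE, adjusted p = 0.00134)), ERp57 (Pdia3, -0.61 ± 0.12 (SE, adjusted p = 0.0036)) and the promoter factor Rfxank (-0.53 ± 0.15 (SE, adjusted p = 0.039)). In fasted knockout mice 5 of 16 fell and 0 rose, where 1.8% of all genes fell and 1.87% rose. They were the immunoproteasome subunits Psmb9 (-0.63 ± 0.14 (SE, adjusted p = 0.0207)) and Psmb10 (-0.59 ± 0.15 (SE, adjusted p = 0.0325)), Calr (-0.49 ± 0.11 (SE, adjusted p = 0.0203)), the tapasin-related Tapbpl (-0.43 ± 0.11 (SE, adjusted p = 0.0468)) and Canx (-0.29 ± 0.08 (SE, adjusted p = 0.044)). All 16 were at or above the limit for dim genes. Of all genes at or above it, 14.6% passed for fasting in wild-type and 5.9% in knockout mice, in either direction. Of the 16, 25% and 31.3% passed. The medians over the 16 were -0.28 and -0.38, against 0.02 and -0.02 over all genes tested. Between genotypes 0 of 16 passed in fed or in fasted mice, and 1, the chaperone Hspa5 at 0.46 ± 0.11 (SE, adjusted p = 0.0383), passed for the mean knockout effect. Rfxank was lost in wild-type mice without knockout fed mice 1 and 4 (adjusted p = 0.0514). In that fit 0 of the 16 passed for fasting in knockout mice, where Calr stood at -0.28, and Hspa5 passed for the mean effect at 0.28, for genotype in fasted mice at 0.49 and for fasting in wild-type mice at -0.38. The difference between these counts was not tested.

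Among 13 measured partners of class II, the lysosomal protease Ctsl rose (0.41 ± 0.08 (SE, adjusted p = 0.00202)) and the tetraspanin Cd9 fell (-0.59 ± 0.17 (SE, adjusted p = 0.0365)) in fasted wild-type mice, and the myeloid factor Spi1 was higher for the mean knockout effect (0.38 ± 0.09 (SE, adjusted p = 0.0336)). In the other contrasts 0 of 13 passed. Of 8 measured class I-like molecules outside the H2 symbols, Mr1, which presents vitamin B metabolites, fell in fasted wild-type mice by 0.80 (adjusted p = 0.00363), and 0 passed in the other contrasts. Of 10 further costimulatory and T cell ligand genes, 0 passed in any contrast by limma. Between genotypes in fed mice, 2 of the 10 had an unadjusted p under 0.05, as did 13.2% of all genes tested. Of the 11 measured genes of interferon gamma signalling, 0 passed between genotypes in fed or in fasted mice, although 10 of 11 differences were positive in fed mice, with a median of 0.21. The transcription factor Irf9 was higher for the mean knockout effect (0.57 ± 0.09 (SE, adjusted p = 0.00395)). In fasted wild-type mice the kinase Jak2 fell (-0.38 ± 0.10 (SE, adjusted p = 0.0213)) and the inhibitor Socs1 rose (0.24 ± 0.07 (SE, adjusted p = 0.0415)). In fasted knockout mice Stat2 fell (-0.61 ± 0.11 (SE, adjusted p = 0.00579)). The calls in fasted wild-type mice were 15.4% of class II partners, 12.5% of class I-like molecules and 18.2% of interferon gamma genes. Of all genes tested 9.22% passed there, and 14.6% of those at or above the limit for dim genes. For the mean knockout effect 1.55% of all genes passed, and for fasting in knockout mice 3.67%. When knockout fed mice 1 and 4 were left out, Spi1 (0.27, adjusted p = 0.1) and Stat2 (-0.42, adjusted p = 0.0899) were lost, Irf9 passed at 0.48 and also in fasted mice at 0.60, and the calls of these lists in fasted wild-type mice held. The median of the interferon gamma genes in fed mice was then 0.08, with 8 of 11 positive.

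The class II genes varied from mouse to mouse inside a group, and together. In the wild-type fasted mice H2-Ab1 read 5.97, 7.04, 7.60, 5.03 and 6.65, a range of 2.57, or a factor of 5.95 between mouse 3 and mouse 4. H2-Aa read 5.17, 6.37, 6.84, 4.85 and 6.13 and Cd74 6.37, 7.02, 7.13, 5.49 and 6.40 in the same mice. In both genes, too, mouse 3 was the highest and mouse 4 the lowest. Over all 16 mice, after each group's mean was taken off, H2-Ab1 went with H2-Aa (Pearson r = 0.96, Spearman rho = 0.93, both by permutation within groups, adjusted p = 0.00045 and 0.00234). It went with Cd74 (r = 0.91, rho = 0.86, permutation, adjusted p = 0.00045 and 0.00234) and with H2-Eb1 (r = 0.87, rho = 0.83, permutation, adjusted p = 0.00702 and 0.00648). Without the 2 mice farthest from the median of H2-Ab1, wild-type fasted mice 3 and 4, r was 0.91, 0.82 and 0.74. These are 3 of 18 relations computed over the 16 mice, with p adjusted over the 18. The dim gene H2-DMa passed with H2-Ab1 by Pearson r only (r = 0.79, rho = 0.46, permutation, adjusted p = 0.0248 and 0.26).

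**Figure D4:**
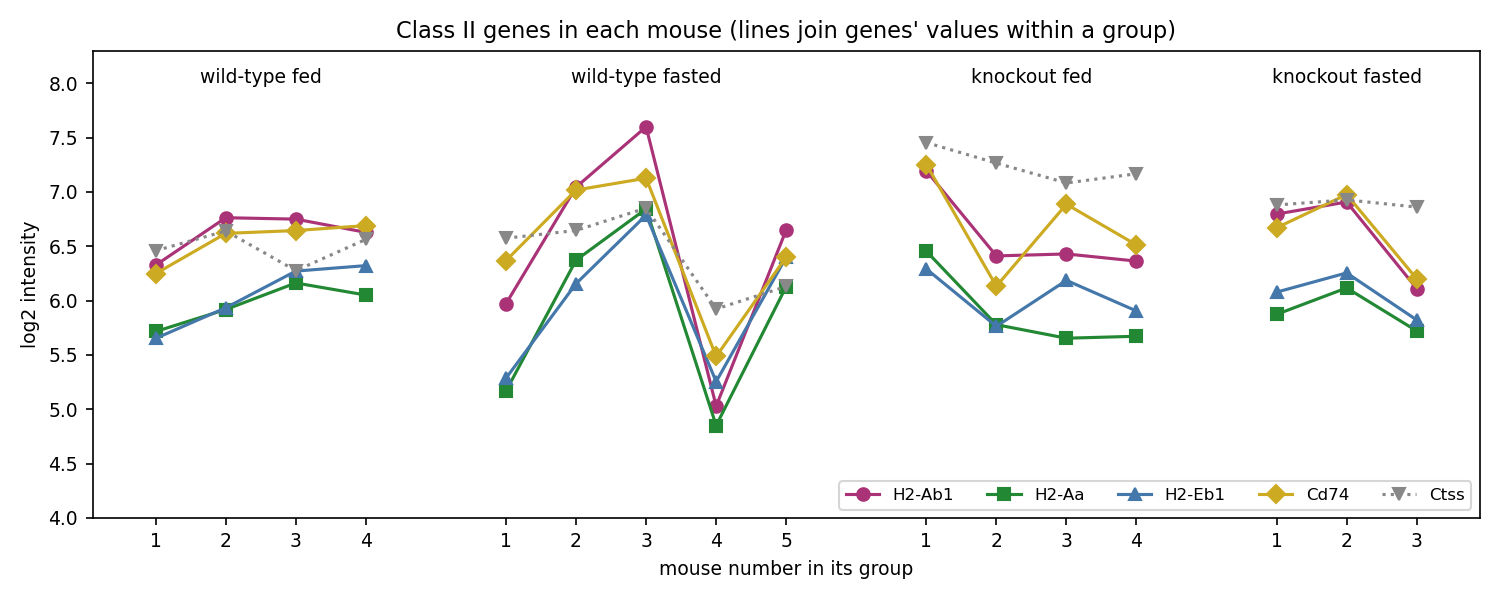
Log2 intensity (vertical axis) of H2-Ab1, H2-Aa, H2-Eb1, Cd74 and Ctss in each mouse (horizontal axis, by group and mouse number), with lines joining the values of a gene within a group only for legibility. In the wild-type fasted group H2-Ab1, H2-Aa, H2-Eb1 and Cd74 are all highest in mouse 3, and Ctss lies highest in the knockout fed group.

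No relation between H2-Ab1 and cell type markers passed the adjustment. B cell markers (9 measured, summary mean by mouse between 2.32 and 2.56) had an r of -0.12 with H2-Ab1 (rho = -0.07, permutation, adjusted p = 0.831 and 0.938), and dendritic cell markers (10) an r of 0.30 (rho = 0.50, permutation, adjusted p = 0.561 and 0.239). Of these lists 2 of 9 and 3 of 10 genes were at or above the limit for dim genes, so little signal of either cell was there to track. Sinusoidal endothelial markers had an r of 0.53 with H2-Ab1 (rho = 0.49, permutation, adjusted p = 0.0862 and 0.196). For T and NK cell markers r was -0.11 (rho = -0.003, permutation, adjusted p = 0.831 and 0.996). The 14 Kupffer cell and macrophage markers had an r of 0.66 with H2-Ab1 (rho = 0.16, permutation, adjusted p = 0.202 and 0.752), which went to -0.10 without wild-type fasted mice 3 and 4. Ctss went with these macrophage markers at r = 0.85, which passed, while its rho of 0.65 did not (permutation, adjusted p = 0.0248 and 0.158). Without the same mice r was 0.58, so the relation partly rests on them. The corresponding r was 0.27 for Cd86, 0.50 for H2-Q4 and 0.05 for H2-T24, none of which passed (permutation, adjusted p of 0.488, 0.254 and 0.831).

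The macrophage markers themselves moved with genotype. In fed mice 4 of 14 rose in the knockout and 0 fell, where 0.451% of all genes rose and 0.226% fell, and all 14 differences were positive with a median of 0.61. Cd5l, a secreted macrophage protein, read 6.56, 6.92, 6.64 and 6.67 in wild-type fed mice against 7.39, 7.65, 7.58 and 7.60 in the fed knockout. These lay apart, with a difference of 0.85 ± 0.15 (SE, adjusted p = 0.0101). Clec4f, a lectin receptor of Kupffer cells, the complement gene C1qb and the folate receptor gene Folr2 rose by 0.88, 0.75 and 0.65 (adjusted p = 0.00203, 0.0196 and 0.0454). In fasted mice Clec4f rose by 0.54 ± 0.12 (SE, adjusted p = 0.0474), and for the mean knockout effect 7 of 14 were higher, against 0.963% of all genes. With knockout fed mice 1 and 4 left out, 1 of 14 passed in fed mice (Clec4f, 0.89), 0 in fasted mice and 3 for the mean effect, and the median in fed mice was 0.58. The mean over the 14 markers ran from 5.78 to 5.96 in wild-type fed, 5.38 to 6.07 in wild-type fasted, 6.37 to 6.49 in knockout fed and 5.99 to 6.17 in knockout fasted mice. In bulk liver, more cells of a type and more RNA per cell cannot be told apart. Of the B cell, dendritic cell, monocyte and neutrophil, and T and NK cell markers, 0 passed between genotypes. An unadjusted p under 0.05 was found for 2 at most in each list and contrast, where 10.4% to 13.2% of all genes had one. In fasted mice 2 of 9 B cell, 2 of 10 dendritic cell and 2 of 11 T and NK cell markers had one. Of the 8 monocyte and neutrophil markers 0 did, and of all genes 10.4%. In these 4 lists 2 of 9, 3 of 10, 1 of 8 and 3 of 11 genes were at or above the limit for dim genes. A change in these cells could therefore have gone unseen. Among 10 sinusoidal endothelial markers, 0 passed by genotype in fed or in fasted mice. Lyve1 of that list was higher for the mean knockout effect (0.53, limma, adjusted p = 0.0316), where 5 of the 10 differences were negative. Its call was lost, at 0.42 (adjusted p = 0.177), once the fit dropped mice 1 and 4 of the fed knockout. The part of macrophage markers in the rise of Ctss, Cd86 and the class I genes was not tested.

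Position is shared by most members and by the deleted gene. Of the 39 members, 32 lie on chromosome 17, the chromosome of Ppard, between 103 and 266 tested genes away from it in the order of GRCm38.p6. Among the 32, 3 (9.38%) were higher in the fed knockout and 2 (6.25%) for the mean knockout effect. Of all genes tested 0.451% and 0.963% passed as higher, and 0.677% and 1.55% in either direction. Of the 102 tested genes between Ppard and the first member, 0 passed in fed mice by limma and 2 in fasted mice and for the mean knockout effect, Glo1 (mean effect 0.65) and its neighbour Btbd9 (0.50). Of the 132 other genes between the first and the last member 1 passed in each of these contrasts, Gpsm3 in fed mice (0.55), Btnl5-ps in fasted mice (-0.52) and Tubb5 for the mean effect (0.36). Of the 669 genes on the rest of chromosome 17, 1 passed in fed mice, 0 in fasted mice and 6 for the mean effect, 4 higher and 2 lower. The background of the mice is mixed, and strain alleles along the chromosome of Ppard and the knockout cannot be told apart in this design. The called members Ctss and Cd86 lie elsewhere, on chromosomes 3 and 16, as do B2m on 2, Nlrc5 on 8, and Cd80 and Ciita on 16.

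**Figure D5:**
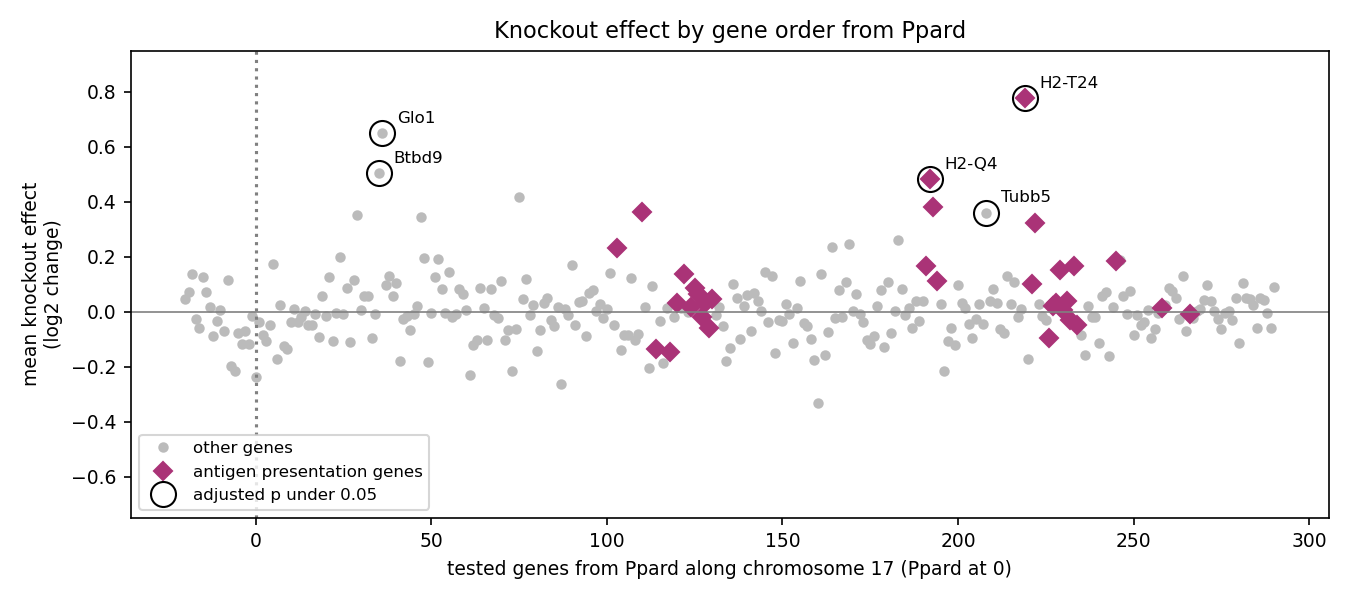
Mean knockout effect over fed and fasted mice (log2 change, vertical axis) of 311 tested genes of chromosome 17 by their order from Ppard (horizontal axis, Ppard at 0), from 20 genes before it to 290 after it, with members as diamonds, other genes as grey points and a ring for an adjusted p under 0.05. The ringed genes are Btbd9 and Glo1 before the first member, H2-Q4 and H2-T24 among the members, and Tubb5 between them, and the 6 other genes of the chromosome that passed lie outside the stretch plotted.

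The 12 H2- symbols without a value of their own could be followed only through 8 probe sets that each carry several symbols, tested among all 35519 probe sets. Of these, 2 were higher in the fed knockout, where 0.239% of probe sets passed as higher. The classical genes H2-K1 and H2-D1 share 2 probe sets. One of these, at a mean of 8.87, reached 8.70 in wild-type fed and 9.36 in knockout fed mice, whose values did not overlap, and was higher in the knockout by 0.65 ± 0.12 (SE, adjusted p = 0.0279). The other, at a mean of 10.57, did not pass (0.37 ± 0.10, SE, adjusted p = 0.162), although its groups of 10.46, 10.44, 10.48 and 10.21 and of 10.89, 10.66, 10.84 and 10.71 did not overlap either. The second call was a probe set of the nonclassical genes H2-Q6 and H2-Q8, which read 6.01, 5.68, 5.74 and 5.64 in wild-type fed and 8.26, 6.97, 7.01 and 6.98 in knockout fed mice. Knockout fed mouse 1 stood above the rest, and the difference was 1.54 ± 0.29 (SE, adjusted p = 0.038). For the mean knockout effect the first H2-K1 and H2-D1 probe set passed, at 0.39, where 0.51% of probe sets passed as higher. In the fit that leaves out knockout fed mice 1 and 4, none of the 8 passed in fed mice or for the mean effect, with 0.63 for that probe set and 1.22 for that of H2-Q6 and H2-Q8 in fed mice (adjusted p = 0.237 and 0.183). The signal of such a probe set belongs to no single gene.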

How the data were processed

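Liver RNA of 16 mice was measured on 16 arrays, and the labels call the mice of a group biological replicates. The deposited values are probe set intensities from RMA, per the submitters' processing notes, not log-transformed (array medians 8.08 to 8.61). Neither the software version nor the annotation build is given in the sources used here. Here log2 was taken, and probe sets with 1 gene symbol were kept (21780 of 35519). The probe set with the highest mean stood for each gene, leaving 19935 genes. All arrays entered 1 limma 3.58.1 fit (R 4.3.3, lmFit and eBayes) of 4 group means, with 6 two-sided contrasts. P-values were adjusted by the Benjamini-Hochberg method over all genes, and an adjusted p under 0.05 counted as passed. The fit was tested on simulated data. Correlations used 100000 permutations within groups. Gene order and promoters came from RefSeq (GRCm38.p6), with 19850 genes placed by gene ID, and its other coordinates were not used. Members at or above the 40th percentile of gene means and called members are named with values. Of the gene lists, called genes are named for the partner, class I-like and interferon gamma lists. For cell type markers some genotype calls are given as counts only, and calls for fasting are left out. The members and the 12 gene lists were chosen with earlier results of these data known. Listed genes without a probe set of 1 symbol were not analysed here. Alternatives covered normalization, dim genes, probe set choice, the variance model, the replicate block and left-out mice. The number of arrays limits the precision.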

Additional observations from a re-analysis of the deposited data

Results flagged for a closer look

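In groups of 4 or more mice, 6 of 66 gene and group values (9.09%) had a mouse set apart from the others by Dixon's gap, where chance gives about 1 in 20. Knockout fed mouse 1 was the highest in 4 of them, at log2 6.76 for H2-Q5, 6.02 for H2-K2, 7.20 for H2-Ab1 and 6.46 for H2-Aa. H2-M3 was lowest in wild-type fed mouse 4, at 3.03, and Cd74 in wild-type fed mouse 1, at 6.25. Outside the gene-level comparison, 2 probe sets that carry several H2- symbols were higher in the fed knockout, 1 of H2-K1 and H2-D1 by 0.65 and 1 of H2-Q6 and H2-Q8 by 1.54, and the first was also higher for the mean knockout effect, by 0.39.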

How the results depend on the processing

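Of 3388 single-member values recomputed under other settings, 3276 kept their direction and side of the threshold, 81 lost the call, 29 gained one and 2 reversed. The reversals were the mean knockout effect of Nlrc5, -0.01 by its brightest probe set, 0.43 by the median of its probe sets and 0.49 by the probe set with the lowest p. With arrays centred on a common median, 3 members passed in the fed knockout and 1 for fasting in wild-type mice. With only the groups of the contrast, 0 passed for fasting in knockout mice. Without knockout fed mice 1 and 4, the counts were 1 in the fed knockout, 0 for fasting in knockout mice and 1 for the mean knockout effect. Leaving out 1 mouse gave 2 to 6 calls in the fed knockout, 1 to 4 for fasting in wild-type, 1 to 5 for fasting in knockout mice and 2 to 4 for the mean knockout effect. With the replicate block, 4 members passed in the fed knockout, 0 in the fasted knockout, 2 and 3 for fasting in wild-type and knockout mice, and 3 for the mean effect. The block ended the calls of H2-T24 in fed mice (1.04, adjusted p = 0.0808) and for the mean effect (0.78, adjusted p = 0.0644) and of H2-Q2 for fasting in wild-type mice (0.25, adjusted p = 0.107). Whether the replicate numbers pair mice was not settled. Of 21 same-numbered pairs, 6 correlated above 0.1 (range -0.25 to 0.23), but pairs with different numbers were not set beside them. Under quantile normalization Tapbp (0.49) and H2-Q5 (0.71) also passed in the fed knockout. Leaving out knockout fed mice 1 and 4 for the other gene lists, the Nlrc5 probe sets and the probe sets of several symbols was chosen after seeing the data.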
